A study of Mus musculus with 24 samples.

Results

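The genes examined were those of the proteasome and of peptide transport into the endoplasmic reticulum in the terminal ileum, the last stretch of the small intestine. All rows of the expression table whose symbol began with Psmb, Psmc or Psmd were taken, together with Tap1, Tap2 and Tapbp where present. This gave 9 of the 547 genes in the table. Of these, 4 are known to be induced by interferon (Psmb9, Psmb10, Tap1 and Tapbp), 4 are constitutive proteasome subunits (Psmb5, Psmb7, Psmc2 and Psmd7), and Psmb11 is a thymic subunit. Psmb8, Psmb6 and Tap2 were not analysed here. The rule used symbols alone and no measured value, but the members were chosen with earlier results of these data known.

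The mice were C57BL/6 and were sampled at week 7 of life. Control mice (n = 7, 4 male and 3 female) received 0 courses of antibiotic. PAT1 mice (pulsed antibiotic treatment, n = 7, 4 male and 3 female) received 1 course of tylosin, a macrolide, while nursing, through the milk of dams that drank it. PAT3 mice (n = 10, 4 male and 6 female) received that course and further ones after weaning, 3 courses in all. The labels and the text of the study differ in how many of these mice were PAT1 and how many PAT3. The labels were followed, so that the group of 1 mouse or more may be in doubt. In the numbering of the sample titles, PAT3 replicate 10 lies among the PAT1 mice and apart from the other PAT3 mice. Control replicate 5 also lies apart from the other Control mice, so the titles do not settle the group of any mouse. Whole litters were assigned to a group and mice were housed by sex and group, so that litter, cage and treatment cannot be told apart. A group drew on several litters, and which mice were littermates was not given in the sources used here. Each mouse was counted as 1 sample, so that p-values measure the spread between mice, some of which may share a litter.

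The proteasome degrades tagged proteins to peptides in a barrel-shaped core, whose catalytic subunits are encoded by Psmb genes and which is capped by a regulatory particle of Psmc and Psmd subunits. Interferon gamma induces alternative catalytic subunits. Psmb9 takes the place of Psmb6, Psmb10 that of Psmb7 and Psmb8 that of Psmb5, and the resulting immunoproteasome favours peptides that fit MHC class I molecules. Tap1 and Tap2 form the transporter that carries peptides into the endoplasmic reticulum, where tapasin, the product of Tapbp, holds empty class I molecules at the transporter. In the gut these genes are expressed in epithelial cells as well as in leukocytes, and lymphocytes of the epithelium are a known source of interferon gamma.

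Psmb9 and Tap1 lie head to head on mouse chromosome 17, with 225 bases between their annotated starts in opposite directions. Their promoter windows (250 bases before to 50 after the start, RefSeq on GRCm38.p6) share 275 of 300 bases, so the window of Tap1 is shown for both, since these were the members that moved. The window of Tapbp, on the same chromosome, is shown for contrast. Capitals mark matches on either strand to the GC box GGGCGG or the CCAAT box CCAAT, which did not overlap.
Tap1 (chr17:34187306-34187605, plus strand): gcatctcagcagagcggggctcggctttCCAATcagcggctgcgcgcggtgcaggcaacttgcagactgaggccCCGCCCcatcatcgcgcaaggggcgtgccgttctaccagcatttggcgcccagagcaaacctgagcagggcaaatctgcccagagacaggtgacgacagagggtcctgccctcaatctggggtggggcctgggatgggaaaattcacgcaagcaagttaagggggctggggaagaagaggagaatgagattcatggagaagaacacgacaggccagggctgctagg
Tapbp (chr17:33919228-33919527, plus strand): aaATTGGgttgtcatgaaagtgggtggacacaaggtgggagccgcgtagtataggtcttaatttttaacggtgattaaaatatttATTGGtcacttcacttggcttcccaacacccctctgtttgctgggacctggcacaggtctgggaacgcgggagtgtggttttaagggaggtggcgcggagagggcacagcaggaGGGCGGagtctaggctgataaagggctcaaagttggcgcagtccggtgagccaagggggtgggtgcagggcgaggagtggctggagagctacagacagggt
The window shared by Psmb9 and Tap1 held 1 GC box and 1 CCAAT box, and that of Tapbp held 1 GC box and 2 CCAAT boxes. Over all 32851 promoters of the table, 35.7% held a GC box and 37.4% a CCAAT box, both common. The core motif of interferon regulatory factors (AANNGAAA, in 23.9% of all promoters) was searched on both strands in the windows of the 7 members with an entry. It matched only in the window of 1 of the annotated starts of Psmc2. A missing match says only that these letters are not in these windows. Psmb7 and Psmd7 had no promoter shown.

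Expression was measured by NanoString nCounter, in which colour-coded probes bound to each RNA are counted without amplification, and is given as log2 normalised count. Total counts recovered from the values ranged from 171671 to 782392 per sample, with a median of 580161, and the 3 shallowest samples were PAT1 replicates 1 and 3 and PAT3 replicate 7. Markers of epithelium, such as the immunoglobulin transporter Pigr, were abundant in every sample, with a summed normalised count of 96447 to 196827 in Control. None of the 41 marker genes was listed at 0 in any sample, but no background threshold was applied, and some, such as Cd8b1 and Cr2 with lowest log2 values of 1.31 and 1.47, were near the floor of the assay in some samples. Levels are comparable between samples for 1 gene, but not between genes, whose probes differ.

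Expression of Psmb9 and Tap1 fell in both antibiotic groups, while none of the constitutive subunits passed the test in either direction. By the moderated F-test of limma over the 3 groups, 2 of the 9 members differed (adjusted p = 0.000177 for Psmb9 and 3.79e-05 for Tap1), against 34.6% of all genes. The same 2 genes were called in PAT1 and in PAT3 against Control, each time lower. Over all 547 genes, 18.5% were called in PAT1, 11.2% as lower, and 31.8% were called in PAT3, 17.9% as lower. A count of 2 among 9 genes is thus not large beside the table as a whole, and the values of each gene follow. Both comparisons share the Control samples.

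Psmb9, the inducible subunit that replaces the constitutive Psmb6, ranged from 9.17 to 9.78 in Control, with a median of 9.54 (log2 normalised count, n = 7). In PAT1 it ranged from 8.47 to 9.57 with a median of 8.53 (n = 7). In PAT3 it ranged from 7.60 to 9.18 with a median of 8.19 (n = 10). Of the PAT1 mice, 5 of 7 lay below every Control mouse, and replicates 1 and 2, at 9.44 and 9.57, lay within the Control range. Of the PAT3 mice, 9 of 10 lay below every Control mouse, and replicate 7, the highest, lay just above the lowest Control value. Means for Control, PAT1 and PAT3 in turn were 9.51 ± 0.23, 8.81 ± 0.48 and 8.28 ± 0.47 (SD, n = 7, 7 and 10). Psmb9 fell by 0.70 (SE 0.22, adjusted p = 0.0249) on the log2 scale in PAT1. In PAT3 it fell by 1.23 (SE 0.20, adjusted p = 3.84e-05). These amount to -38.4% (95% confidence interval -55.1 to -15.6%) and -57.4% (-68.1 to -43.0%).

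The call in PAT1 was lost after re-centring on the sample median (log2 fold change -0.56, adjusted p = 0.0998) and by the analysis of variance with Tukey test of the study's methods (adjusted p = 0.0852). It was also lost in males alone (-0.37, adjusted p = 0.410), the sex of the PAT1 replicates 1 and 2. Without Control replicate 7 or PAT1 replicate 4, 5 or 6, the adjusted p rose above the threshold, with values over all samples left out in turn of 0.00738 to 0.0566.

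Tap1, a chain of the peptide transporter, ranged from 9.61 to 10.23 in Control, with a median of 10.07 (log2 normalised count, n = 7). The PAT1 values ran from 8.61 to 9.99 around a median of 9.10 (n = 7). The PAT3 values ran from 8.24 to 9.60 around a median of 8.71 (n = 10). All PAT3 mice lay below all Control mice, and 6 of 7 PAT1 mice did, with replicate 2 at 9.99 as the exception. Tap1 was the 1 member whose PAT3 values lay wholly below Control, which held for 7.31% of all genes, and 0 members did so in PAT1, against 3.84% of genes. In the same order, the means were 9.998 ± 0.22, 9.19 ± 0.42 and 8.75 ± 0.39 (SD, n = 7, 7 and 10). Tap1 fell by 0.80 (SE 0.19, adjusted p = 0.00409) on the log2 scale in PAT1. The fall in PAT3 was 1.24 on that scale, a log2 fold change of -1.24 (SE 0.18, adjusted p = 7.87e-06). In percent, the changes were -42.7% (95% confidence interval -56.6 to -24.4%) and -57.8% (-67.3 to -45.5%). With females or males alone the call in PAT1 was lost (adjusted p = 0.0658 and 0.148).

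Psmb10, the inducible subunit in the place of Psmb7, ranged from 9.82 to 10.58 in Control with a median of 10.36, from 9.86 to 10.39 in PAT1 with a median of 10.19, and from 9.62 to 10.35 in PAT3 with a median of 9.95 (log2 normalised count). The groups overlapped, and 3 of 10 PAT3 mice lay below every Control mouse. Its log2 fold change was -0.12 (SE 0.14, adjusted p = 0.589) in PAT1 and -0.32 (SE 0.13, adjusted p = 0.0537) in PAT3, and neither passed the threshold. The call in PAT3 depended on the setting. Psmb10 was called lower there with quantile normalisation (adjusted p = 0.0251), with voom on the recovered counts (0.0383), with sample weights (0.000926), with sex or the size factor as a covariate (0.0314 and 0.0146), after a filter on low values (0.0408) and with the 3 shallowest samples left out (0.0195). It was not called after re-centring on the sample median (log2 fold change -0.13, adjusted p = 0.546), by the methods' test (0.0896), in males or females alone (0.183 and 0.133) or with a pseudocount of 1 (0.0536). With each mouse left out in turn, it was not called in 19 of 24 fits.

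Tapbp, which encodes tapasin, was not called in any comparison, and its groups overlapped. It ranged from 10.02 to 10.55 in Control, from 9.90 to 10.77 in PAT1 and from 9.70 to 10.62 in PAT3, with medians of 10.27, 10.49 and 10.30 (log2 normalised count). The log2 fold change was 0.09 in PAT1 (95% confidence interval -0.24 to 0.42, adjusted p = 0.739) and -0.05 in PAT3 (-0.35 to 0.25, adjusted p = 0.816). The lowest PAT3 values were those of replicates 7 and 5.

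**Figure D1:**
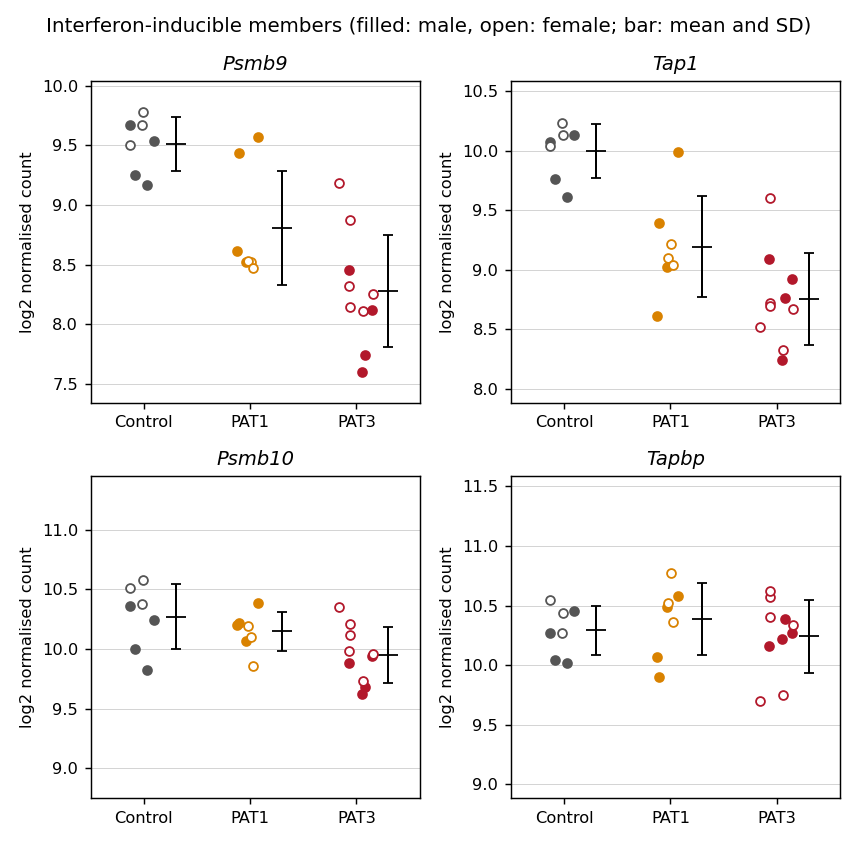
Log2 normalised count of the 4 interferon-inducible members in each mouse by group, with males filled, females open, and bars for mean and SD. All 10 PAT3 mice sit below the Control mice for Tap1 and 9 of 10 do for Psmb9, whereas the groups overlap for Psmb10 and Tapbp.

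Between the treated groups, the values of Psmb9 and Tap1 were lower after 3 courses than after 1, but 0 of the 9 members passed the test, against 4.20% of all genes in either direction and 2.74% as lower. At an unadjusted p under 0.05 there were 2 members and 156 genes. The log2 fold change from PAT1 to PAT3 was -0.53 (SE 0.20, adjusted p = 0.0978) for Psmb9 and -0.44 (SE 0.18, adjusted p = 0.111) for Tap1. The methods' test and voom on the recovered counts also called 0 members. Psmb9 was called with sample weights (adjusted p = 0.0403), in males alone (-1.06, adjusted p = 0.0193) and without PAT3 replicate 7 (adjusted p = 0.0251), and Tap1 without PAT3 replicate 10 (adjusted p = 0.0455). Replicate 10 is the PAT3 mouse whose sample title lies among those of PAT1.

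The constitutive subunits overlapped between all groups. Psmb5, the subunit of chymotrypsin-like activity that Psmb8 replaces, ranged from 10.86 to 11.14 in Control, from 10.83 to 11.84 in PAT1 and from 10.82 to 11.77 in PAT3 (log2 normalised count). Psmb7, the subunit of trypsin-like activity that Psmb10 replaces, ranged from 10.82 to 11.21 in Control, from 10.92 to 11.79 in PAT1 and from 10.71 to 11.63 in PAT3. For both, the top PAT1 value was that of replicate 3 and the top PAT3 value that of replicate 7, which are among the 3 shallowest samples. Psmc2, an ATPase of the regulatory particle, ranged from 11.18 to 11.53 in Control, from 11.01 to 11.83 in PAT1 and from 11.04 to 11.66 in PAT3. Psmd7, a non-ATPase subunit of the lid of that particle, ranged from 10.71 to 10.98 in Control, from 10.63 to 11.28 in PAT1 and from 10.68 to 11.27 in PAT3.

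None of these 4 genes was called in any comparison. The log2 fold changes in PAT1 were 0.21 for Psmb5 (95% confidence interval -0.09 to 0.51, adjusted p = 0.360) and 0.16 for Psmb7 (-0.12 to 0.45, adjusted p = 0.459). Those of Psmc2 and Psmd7 in PAT1 were -0.01 (-0.27 to 0.25, adjusted p = 0.988) and -0.0050 (-0.24 to 0.23, adjusted p = 0.991). In PAT3 the changes were 0.14 (-0.14 to 0.42, adjusted p = 0.439) for Psmb5 and 0.14 (-0.12 to 0.40, adjusted p = 0.418) for Psmb7. They were 0.03 (-0.21 to 0.27, adjusted p = 0.860) for Psmc2 and 0.07 (-0.14 to 0.29, adjusted p = 0.591) for Psmd7. Falls of the size seen for Psmb9 and Tap1 lay outside all of these intervals. The median log2 fold change was 0.08 over the 4 constitutive members in PAT1 and 0.11 in PAT3, against -0.41 and -0.78 over the 4 inducible ones and 0.01 and 0.03 over all genes. The inducible members did not move alike. Their median lies between the falls of Psmb9 and Tap1 and the smaller changes of Psmb10 and Tapbp, which were not called.

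Psmb11, a catalytic subunit known from the cortical epithelium of the thymus, was near the floor of the assay. Its recovered counts were 6 to 15 in Control, 3 to 12 in PAT1 and 7 to 14 in PAT3. The log2 normalised counts ranged from 2.30 to 3.69, from 1.94 to 3.32 and from 2.46 to 4.10, and its counting error alone was about 32.4% of the level. Its log2 fold change was -0.21 (SE 0.26, adjusted p = 0.626) in PAT1 and 0.24 (SE 0.24, adjusted p = 0.450) in PAT3. No direction can be read from these values. The counting error of the other members was 1.79 to 5.01%.

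**Figure D2:**
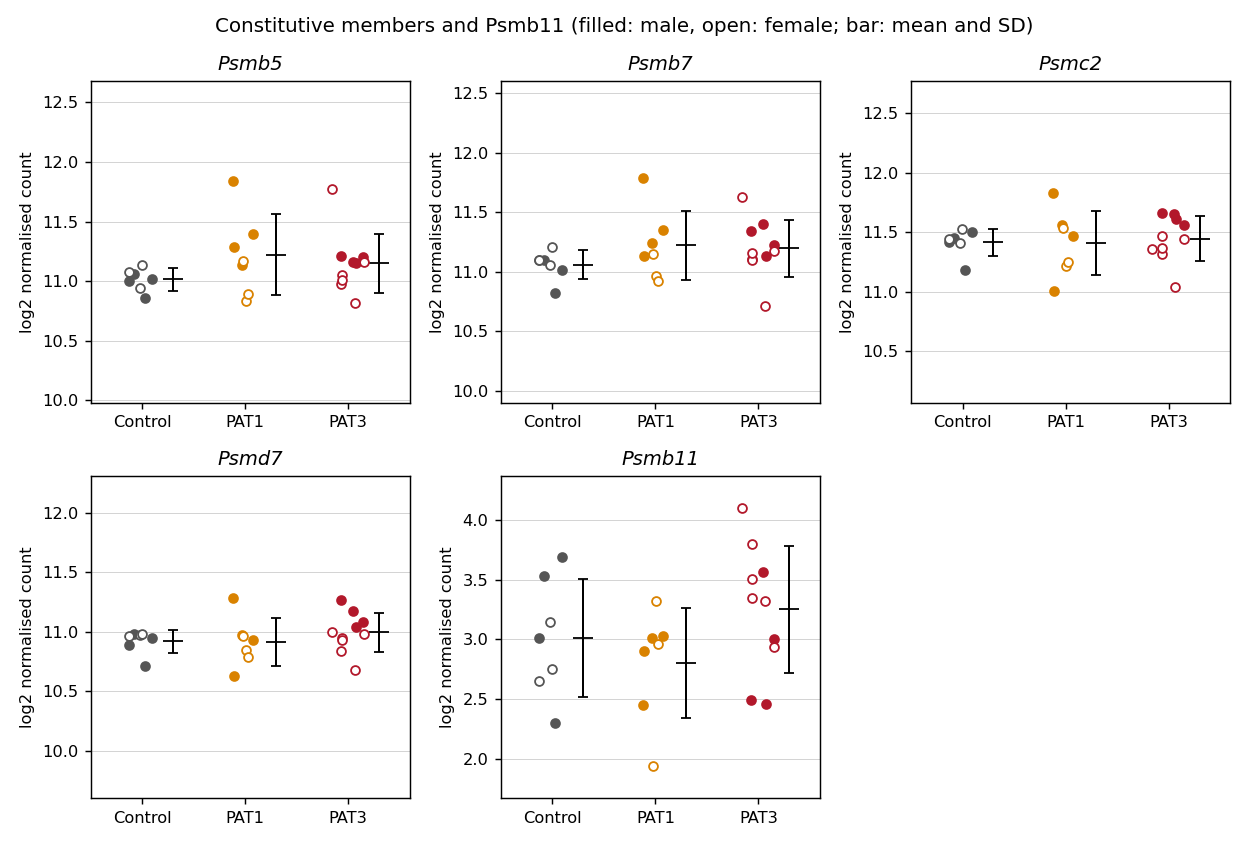
Log2 normalised count of the 4 constitutive subunits and of Psmb11 in each mouse by group, with males filled, females open, and bars for mean and SD. The groups overlap in every panel, and Psmb11 lies between 1.94 and 4.10.

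**Figure D3:**
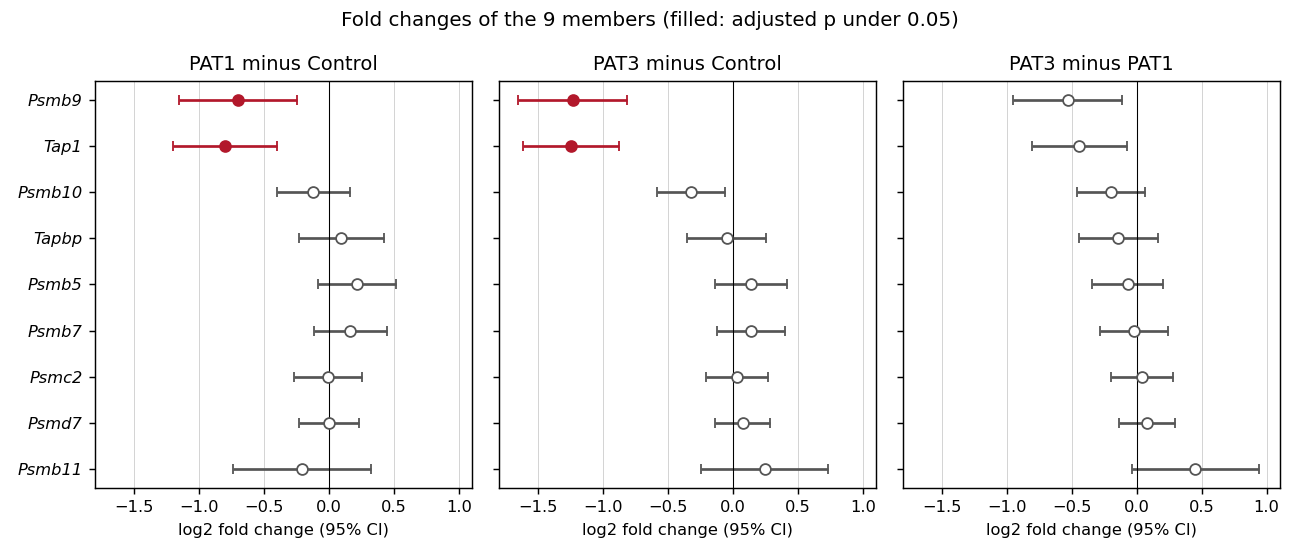
Log2 fold change of each of the 9 members in the 3 comparisons, with 95% confidence intervals and filled points for adjusted p under 0.05. Psmb9 and Tap1 are filled and to the left of 0 in PAT1 and PAT3 against Control, and no point is filled for PAT3 against PAT1.

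Inducible and constitutive subunits were compared within each mouse, as the log2 difference of their values. The difference has no meaning as a level, since the probes differ, but its shift between groups cancels any scaling of a whole sample. Psmb10 and Psmb7, which take the same place in the core, were the replacement pair with both genes in the table. Psmb10 minus Psmb7 averaged -0.79 ± 0.19, -1.07 ± 0.25 and -1.25 ± 0.26 for Control, PAT1 and PAT3 (SD, n = 7, 7 and 10). The shift was -0.46 in PAT3 (two-sided exact permutation p = 0.00129, adjusted p = 0.00386 over 3 comparisons). It was -0.28 in PAT1 (exact p = 0.0256, adjusted p = 0.0385) and -0.18 between PAT3 and PAT1 (exact p = 0.181). Thus Psmb10 fell relative to Psmb7 in PAT3, although neither gene was called alone. The call in PAT1 was lost when p was adjusted over all 12 pair comparisons made (0.0513). It was also lost in 8 of the 14 tests that left out 1 mouse, those without Control replicate 1, 3, 5, 6 or 7 or PAT1 replicate 3, 4 or 7 (exact permutation, adjusted p of 0.0568 to 0.0822). Without PAT1 replicate 3, the lowest value of that group at -1.59, the shift in PAT1 was -0.20 (exact permutation p = 0.0519, adjusted p = 0.0778). That between PAT3 and PAT1 was then -0.26 (exact permutation p = 0.0307, adjusted p = 0.0307). In each test that left out 1 mouse, the adjustment took the p of the other comparisons from all mice. These adjusted p-values thus mix sets of mice. In PAT3 the shift was called without any 1 mouse, and in females alone (-0.46, exact permutation, adjusted p = 0.0357), but not in males alone (-0.58, adjusted p = 0.0857), where 4 against 4 mice cannot give an exact p below 0.0286.

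The unequal falls among the inducible members were compared in the same way, in pairs chosen after their values had been seen and adjusted over 9 comparisons. For Psmb9 with Psmb10 and for Tap1 with Tapbp, unequal changes had already been seen. The adjustment does not correct for that choice, so the p-values of these pairs are a description. Psmb9 fell further than Psmb10. Their difference averaged -0.76 ± 0.12, -1.34 ± 0.38 and -1.67 ± 0.29 for the same groups (SD, n = 7, 7 and 10). The shift was -0.58 in PAT1 (exact permutation, adjusted p = 0.0131) and -0.91 in PAT3 (exact p = 5.14e-05, the smallest that 7 against 10 mice can give, adjusted p = 0.000231). The values in PAT3 lay wholly below those in Control, while PAT1 replicates 1 and 2, at -0.78 and -0.81, lay within the Control range and the other 5 lay between -1.66 and -1.39. Tap1 likewise fell relative to Tapbp, with a shift of -0.90 in PAT1 (exact permutation, adjusted p = 0.00350) and of -1.19 in PAT3 (exact p = 5.14e-05, adjusted p = 0.000231). Again the PAT1 replicates 1 and 2 lay apart, at -0.51 and -0.59 against -1.55 to -1.32 in the other 5. Psmb9 and Tap1, which share a promoter region, showed no detectable shift against each other, at 0.10 in PAT1 (exact permutation, adjusted p = 0.517) and 0.01 in PAT3 (exact p = 0.959). Their difference was more spread in the treated mice, with an SD of 0.30 in PAT1 and 0.46 in PAT3 against 0.09 in Control, a difference in spread that was not tested. In males alone, Psmb9 fell further than Tap1 in PAT3 (shift -0.28, exact permutation, adjusted p = 0.0429), whereas in females the shift was 0.21 (adjusted p = 0.833). A test of the difference between the sexes was not run for the pair.

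**Figure D4:**
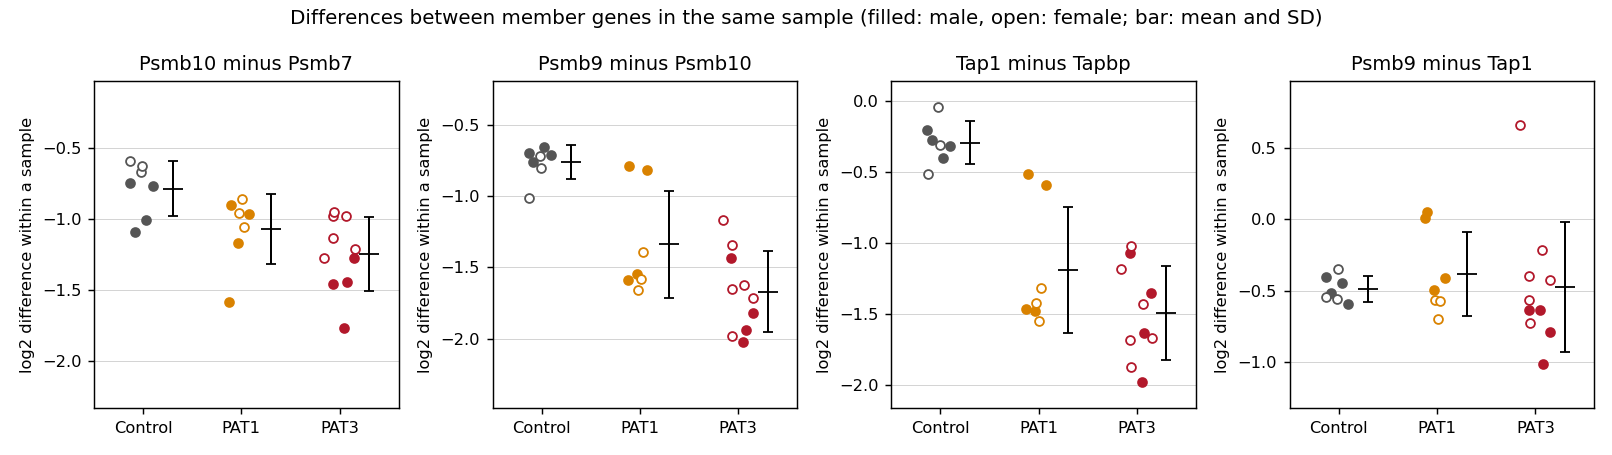
Log2 difference between pairs of member genes within each mouse by group, with males filled, females open, and bars for mean and SD. Psmb9 minus Psmb10 and Tap1 minus Tapbp sit lower in all PAT3 mice than in Control, with 2 PAT1 mice near Control, and Psmb9 minus Tap1 is centred alike in all groups.

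Neither sex as such nor a treatment-by-sex term called any member. For female minus male, 0 of 9 members passed, against 0.366% of all genes, and at an unadjusted p under 0.05 there were 0 members and 64 genes. For treatment by sex, 0 members passed, against 0.183% of genes, and at an unadjusted p under 0.05 there were 1 member and 100 genes. That member was Psmb9 (unadjusted p = 0.0327, adjusted p = 0.228 by limma). Its mean log2 normalised count went from 9.40 to 9.04 to 7.98 in males of Control, PAT1 and PAT3, and from 9.65 to 8.51 to 8.48 in females. Tap1 went from 9.90 to 9.25 to 8.75 in males and from 10.13 to 9.12 to 8.76 in females. The larger male fall of Psmb9 between PAT1 and PAT3 was therefore not shown to differ from that in females.

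Some other genes of the interferon gamma axis fell in the treated groups and some rose, while none of the type I interferon axis fell. The lists were not tested against each other or against other genes. Over all genes, 11.2% were called lower and 7.31% higher in PAT1, and 17.9% lower and 13.9% higher in PAT3. Of 14 interferon gamma axis genes in the table, 7 were called lower and 2 higher in PAT1, and 9 lower and 2 higher in PAT3. The median log2 fold change was -0.53 and -0.59. Among the largest were Cxcl9, a chemokine induced by interferon gamma (-1.34, SE 0.27, and -1.95, SE 0.25), Ciita, the activator of MHC class II genes (-1.22, SE 0.22, and -1.67, SE 0.20) and Cd274, the ligand PD-L1 (-1.33, SE 0.25, and -1.46, SE 0.23). Each gives PAT1 before PAT3, with a largest adjusted p of 0.000865. Ifngr2, a chain of the interferon gamma receptor, was among those called higher (0.96, adjusted p = 0.000614, and 0.61, adjusted p = 0.00770, by limma). Of 18 type I interferon axis genes, 3 were called higher in PAT1 and 5 in PAT3, and 0 lower, with medians of 0.15 and 0.20. Among them were Ifna1, an interferon alpha gene (1.19 and 0.92, adjusted p = 0.0211 and 0.0399) and Irf7, a factor that induces such genes, in PAT1 (1.38, adjusted p = 0.0153). Of the class I molecules themselves, B2m, the shared light chain, was not called (0.18, adjusted p = 0.535, and -0.32, adjusted p = 0.136), and neither was the heavy chain H2-K1 (0.23, adjusted p = 0.462, and -0.17, adjusted p = 0.478). H2-Q10, a non-classical class I gene, rose by 0.69 in PAT1 (adjusted p = 0.0203) and 0.84 in PAT3 (adjusted p = 0.00179). H2 genes are close paralogs, and cross-hybridisation of their probes was not tested.

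Some markers of T cells and cytotoxic lymphocytes fell in the same groups. Of 9 T cell markers, 2 were called lower in PAT1 and 8 in PAT3, beside 11.2% and 17.9% of all genes, and the count in PAT1 is not large beside that share. Of 8 cytotoxic lymphocyte markers, 4 were called lower in PAT1 and 6 in PAT3, and their summed normalised count ranged from 1307 to 3017 in Control, from 553 to 1720 in PAT1 and from 368 to 1296 in PAT3. Granzyme genes led them, with Gzma at -1.52 in PAT1 and -2.52 in PAT3 and Gzmb at -1.62 and -2.33 (log2 fold change, adjusted p between 2.41e-06 and 0.00791). Of 7 epithelial markers, 2 were called higher and 2 lower in each group, and the summed count ranged from 113556 to 188870 in PAT1 and from 122205 to 173243 in PAT3. Those lower in both groups were Pigr (log2 fold change -1.32 in PAT1 and -0.90 in PAT3) and Ceacam1 (-1.26 and -1.05). Ccl25 was higher in both (1.13 and 0.81), and Abcb1a was called higher in PAT3 but not in PAT1. Pigr is thus not a stable measure of epithelium here. Of 9 B cell markers, 0 were called in PAT1 and 1 in PAT3, as lower, with median log2 fold changes of 0.71 and -0.67, and PAT1 replicate 7 stood apart with the highest summed B cell marker count, 5470, with Psmb9 at 8.47 and Tap1 at 9.04. In bulk tissue, fewer cells of a type and less RNA per cell cannot be told apart. The part of the lymphocyte markers in the fall of Psmb9 and Tap1 was not tested.

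Within groups the members followed such markers from mouse to mouse to different degrees. As a description over the deviations of the 24 mice from their group means, which share libraries and depth, the summed cytotoxic lymphocyte markers had a Pearson r of 0.77 with Tap1, 0.74 with Psmb10 and 0.61 with Psmb9 (Spearman rho 0.71, 0.72 and 0.65). Leaving out the 2 mice farthest from the median of the marker sum gave 0.80, 0.70 and 0.63. With the summed T cell markers, r was 0.65 for Psmb9, 0.51 for Tap1 and 0.33 for Psmb10 (Spearman rho 0.64, 0.47 and 0.42), and 0.84, 0.54 and 0.51 without the 2 mice farthest from the median of that sum. PAT1 replicate 7 was 1 of the 2 mice left out there. It went against the association, with the highest log2 summed T cell marker count of PAT1, 10.17, and the lowest Psmb9 of that group, 8.47. With the cytotoxic markers, r was 0.17 to 0.33 for the constitutive members and 0.47 for Tapbp. The summed epithelial markers had an r of 0.66 with Tapbp, and of 0.27 with Tap1 and -0.09 with Psmb9. All these sums add normalised counts, so abundant genes weigh most in them. Among the cytotoxic markers, the median log2 value over all mice was 9.03 for Gzma but 2.95 for Eomes. Among the epithelial markers it was 16.05 for Itln1. The PAT1 mice with the highest Psmb9, replicates 2 and 1, also had the highest log2 summed cytotoxic marker counts of that group, 10.75 and 10.33. In PAT3, replicate 10 had the highest such sum, at 10.34, and the highest Tap1. Replicate 7, with the highest Psmb9, was in the middle of the group at 9.40, had the second highest log2 summed T cell marker count, 9.32 against 9.34 in replicate 10, and had a Tap1 of 8.52.

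**Figure D5:**
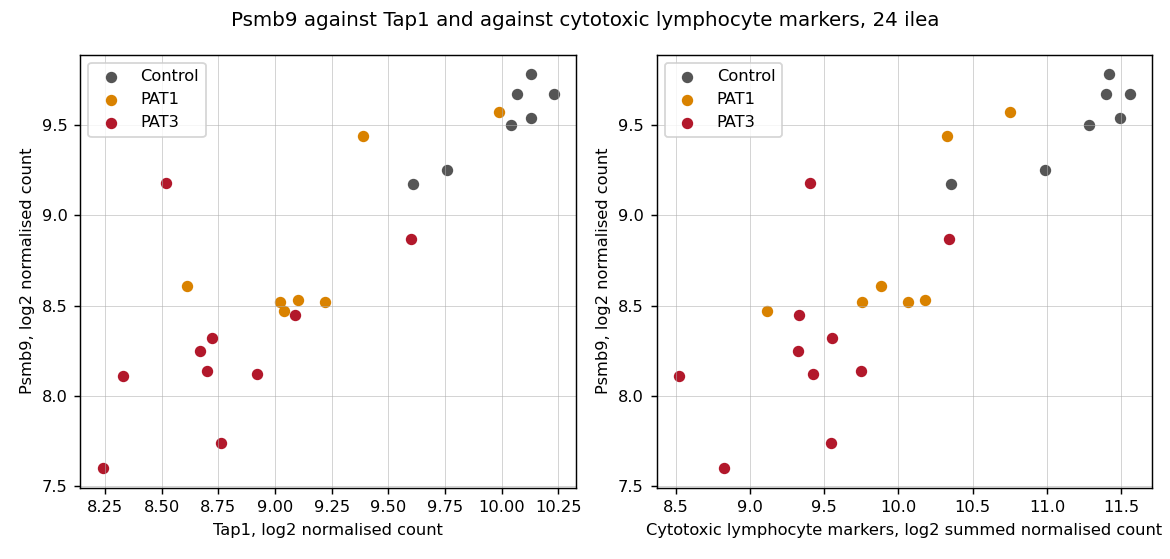
Psmb9 in each of the 24 mice against Tap1 (left) and against the summed cytotoxic lymphocyte markers (right), all as log2 normalised counts, coloured by group. Control mice lie at the upper right, and PAT3 replicate 7 stands above the other PAT3 mice at a Psmb9 of 9.18.

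Among themselves, the members varied together to different degrees. Over the same 24 deviations, Pearson r was 0.94 between Psmc2 and Psmd7, which belong to the same regulatory particle, and 0.92 between Psmb5 and Psmb7, which belong to the core. Between core and particle it was 0.78 for Psmb7 and Psmd7 and 0.71 for Psmb7 and Psmc2. It was 0.77 between Psmb9 and Psmb10 and 0.63 between Psmb9 and Tap1. Between inducible and constitutive members it was 0.46 for Psmb10 with Psmb5 and with Psmb7 and 0.42 for Psmb9 with Psmb5. It was -0.21 between Psmb9 and Psmc2 and 0.01 between Tap1 and Psmc2. Outside the members, the 5 genes of the table most like the mean deviation of Psmb9, Psmb10 and Tap1 were Gzma (r = 0.78), Gzmb (0.76), B2m (0.75), the T cell chemokine Ccl5 (0.75) and Cd7 (0.71), a surface protein of T cells and natural killer cells. Gzma and Gzmb are also part of the summed cytotoxic markers, so their likeness is not a separate observation from that of the sum. Among those most like the constitutive subunits were Xbp1 (0.93), the factor of the unfolded protein response, Bax (0.80), a promoter of apoptosis, the lymphotoxin receptor Ltbr (0.79) and Il10rb (0.72), a cytokine receptor chain. With Psmb11 counted among the constitutive subunits, the 5 were Xbp1 (0.78), Bax (0.76), Ly96 (0.72), Bid (0.69) and Ifngr2 (0.68). B2m thus varied with the inducible members from mouse to mouse although it was not called between the groups.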

How the data were processed

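RNA from the terminal ileum of 24 mice was hybridised to the nCounter GX mouse immunology panel. The labels name TRIzol with column cleanup for extraction and the methods another column kit, and which applies was not settled. The authors normalised the counts with DESeq2 (version not given in the sources used here) and deposited log2 values of 547 genes, in which a count of 0 is listed as 0 (19 values, none in a member). Dividing by a step specific to each sample recovered whole counts to within 0.000253 counts. Whether background was subtracted is not given in the sources used here, and the precision is limited by counts near the floor.

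Groups and sex came from the labels, and replicate numbers only follow sample order. The 9 members and the gene lists were chosen with earlier results of these data known. Log2 values were fitted with limma (version 3.58.1, R 4.3.3, lmFit and eBayes) for all 547 genes in 1 fit over the 3 groups without covariates, and p was adjusted by Benjamini-Hochberg over all genes in each comparison, with a threshold of 0.05. Such genes are termed called. The sexes were compared in a fit with treatment and sex, and treatment by sex in a fit with a mean for each combination. Differences between members within a mouse were tested by two-sided exact permutation tests that went through every split of the mice (numpy 2.4.6). Spearman rho was computed with scipy 1.17.1. Scripts were tested on simulated data.

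All members were named, and from other lists at most 4 called genes with the largest change and the 5 most like each pattern. Some genes that this rule selects are not reported here. Alternatives were other normalisations, the methods' test (aov and TukeyHSD), voom, sample weights, sex or size factor as covariate, each sex alone, a pseudocount of 1, a filter at a mean log2 value of 5 and each mouse left out. Leaving out the 3 shallowest samples was chosen after seeing the data. RefSeq matched 9 members by symbol and gave promoters of 7, on GRCm38.p6. The table itself names no build.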

Additional observations from a re-analysis of the deposited data

Results flagged for a closer look

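In 6 of the 39 sets of values examined (each member, and each difference between members, within a group), 1 mouse lay far from the others of its group by Dixon's criterion, which chance alone meets in about 1 in 20 sets. PAT3 replicate 7, among the 3 shallowest samples, had a Psmb5 of 11.77 (log2 normalised count), above the other PAT3 mice. In the same mouse Psmb9 minus Tap1 was 0.66, the highest of its group. Control replicate 4 had a Psmc2 of 11.18 and a Psmd7 of 10.71, each below the other Control mice. That mouse was also the lowest Control mouse for every other member and for the summed epithelial, T cell and cytotoxic markers. It thus set the Control minimum in each count of treated mice below every Control mouse. Psmb10 minus Psmb7 was -1.59 in PAT1 replicate 3, below the other PAT1 mice. Psmb9 minus Psmb10 was -1.01 in Control replicate 5, below the other Control mice.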

How the results depend on the processing

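The number of members called among the groups and in PAT3 against Control stayed at 2 or 3 under every alternative run, and each of these sets held Psmb9 and Tap1. In PAT1 against Control it was 1 after re-centring on the sample median, by the methods' test and in females alone, 0 in males alone, and 1 to 2 with each mouse left out. Between PAT3 and PAT1 it was 1 with sample weights and in males alone, and 0 to 1 with each mouse left out. Psmb10 minus Psmb7 in PAT1 lost its call in males (-0.25) and females (-0.33) alone and in limma (-0.28), and ranged from -0.34 to -0.20 with each mouse left out. In PAT3 it lost its call in males alone (-0.58), and between PAT3 and PAT1 it ranged from -0.26 to -0.12 with each mouse left out. Subsets of 1 sex hold fewer mice. The cause of the other changes was not tested. Re-centring moved the median log2 fold change of all genes to 0.15 in PAT1 and 0.22 in PAT3, from 0.01 and 0.03. Re-centring on reference genes could not be run, since none was in the table used here. No paired analysis was possible because the replicate numbers follow sample order alone.

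Changes of sign occurred in values that were not called over all mice. After re-centring, Psmb10, Psmc2 and Psmd7 in PAT1 were 0.023, 0.13 and 0.14, Tapbp in PAT3 was 0.14 and Psmb7 between PAT3 and PAT1 was 0.023. With quantile normalisation, Psmb5 and Psmb7 were -0.00048 and -0.097 in PAT1 and -0.022 and -0.06 in PAT3, Psmc2 and Psmd7 in PAT3 were -0.12 and -0.10, and Psmb7 between PAT3 and PAT1 was 0.036. Sample weights gave 0.032 and 0.0078 for Psmc2 and Psmd7 in PAT1 and 0.0037 for Tapbp in PAT3. With the size factor as a covariate, Psmb5 and Psmb7 between PAT3 and PAT1 were 0.042 and 0.058 and Psmc2 in PAT1 was 0.0098. In males, Psmb10, Psmc2 and Psmd7 in PAT1 were 0.12, 0.076 and 0.071, and Psmb11, Tapbp and Psmb9 minus Tap1 in PAT3 were -0.25, 0.065 and -0.28, the last of them called in males. In females, Psmb5, Psmb7 and Psmb9 minus Tap1 in PAT1 were -0.088, -0.11 and -0.13, Psmc2 and Psmd7 in PAT3 were -0.13 and -0.074, and between PAT3 and PAT1 Psmb5, Psmb7, Psmb10, Psmc2 and Psmb9 minus Tap1 were 0.17, 0.14, 0.0065, -0.0051 and 0.33. Without the 3 shallowest samples, Psmb7 between PAT3 and PAT1 was 0.024 and Tapbp in PAT3 was 0.011.

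With each mouse left out, Psmc2 ranged from -0.079 to 0.057 in PAT1, from -0.0096 to 0.075 in PAT3 and from -0.028 to 0.11 between PAT3 and PAT1, and Psmd7 in PAT1 ranged from -0.066 to 0.042. Between PAT3 and PAT1, Psmb5 ranged from -0.14 to 0.032 and Psmb7 from -0.073 to 0.071. In PAT3, Tapbp ranged from -0.095 to 0.011 and Psmb9 minus Tap1 from -0.11 to 0.073.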
